A study of Mus musculus with 11 samples.

Results

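Prdm16 was followed as a stretch of open chromatin: every accessible region whose nearest protein-coding gene body, at most 100 kb away, was Prdm16 was taken from the peak list of each library. By this rule 262 of 981265 deposited peaks belonged to Prdm16, 112 in Prdm3/16KO and 150 in Control libraries. After the lists were cut to one length and joined into regions, they formed 31 of 101557 regions. Of these, 20 held a peak in at least 3 of the 11 libraries and could be compared between genotypes, among 83262 such regions genome-wide. The assay was ATAC-seq: a transposase inserts adapters where DNA is accessible, so its fragments mark promoters, enhancers and other open sites. It says where chromatin was open, not how much Prdm16 RNA or protein was made.

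The cells were epithelial cells of fetal mouse lungs at E17.5, captured from lung cell suspensions by magnetic beads that bind EpCAM, an adhesion molecule on epithelial cells. There were 5 Prdm3/16KO libraries and 6 Control libraries. The Prdm3/16KO mice carried loxP-flanked (fl) alleles of Prdm16 and of Prdm3, whose gene symbol is Mecom, together with ShhCre, a recombinase expressed from the Shh locus that acts in the lung epithelium from early in its development. The sires were Prdm3fl/fl Prdm16fl/wt ShhCre+ and the dams Prdm3fl/fl Prdm16fl/fl, so by that cross every fetus had loxP-flanked Prdm3 alleles and at least 1 loxP-flanked Prdm16 allele, with or without Cre. The labels call the other group only Control and do not say which of these genotypes it had. Both genes were deleted together in the Prdm3/16KO mice, so no difference below can be assigned to the loss of Prdm16 or of Prdm3. Whether each library came from a separate fetus is not stated, so the p-values measure the spread between these libraries, which may in part be technical.

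PRDM16 is a zinc finger protein of the PRDM family that binds DNA and recruits co-repressors and co-activators, among them the CtBP proteins and the histone methyltransferase EHMT1. It is best known for switching on the brown fat program together with PGC-1α, and also acts in neural and blood stem cells and in craniofacial development. PRDM3 is its closest relative and shares its domain structure. Genes of this kind, which encode developmental regulators, often lie in long loci with many enhancers inside their introns. A Cre-driven deletion removes a piece of the coding gene and leaves most of the locus in place, so the rest of the locus can still be read as open or closed DNA. The loxP-flanked piece was not located in the sources used here. The peaks therefore do not check the deletion. Whether any region below lies inside that piece, where a lower score could mean missing DNA, was not tested.

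Prdm16 has the gene ID 70673 and lies on the minus strand of mouse chromosome 4 in mm10, the build of the files. Its annotated body, from base 154316122 to base 154637360, is 321 kb long. The RefSeq promoter table (GRCm38.p6, the same build) puts the transcription start at base 154636873, which is 487 bp inside the annotated end of the gene. Distances below run from that start along the direction of transcription, so "+51 kb" lies 51 kb into the gene. The gene table gives no exons, so a region inside the body is not placed in an exon or an intron.

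The promoter is printed because it surrounds the transcription start used here and overlaps a tested region. It covers 250 bases before and 50 after the start, from RefSeq (GRCm38.p6), at chr4:154636824-154637123 on the minus strand. The capitals mark 3 matches to short motifs searched on both strands: GGGCGG (bound by SP and KLF factors), GGAATG (TEAD) and CCAAT (NFY), in that order.
Prdm16 promoter: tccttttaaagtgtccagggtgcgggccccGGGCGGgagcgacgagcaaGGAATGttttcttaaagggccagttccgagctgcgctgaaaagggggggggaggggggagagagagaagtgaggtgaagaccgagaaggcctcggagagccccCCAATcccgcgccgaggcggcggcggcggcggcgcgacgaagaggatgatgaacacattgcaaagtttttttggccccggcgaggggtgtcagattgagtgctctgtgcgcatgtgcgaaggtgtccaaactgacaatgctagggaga

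The sequence is rich in G and C, at 61% against a median of 52.7% over 32851 mouse promoters of the same length. It holds 24 CpG dinucleotides, against a median of 7. The matches start at position -220 for GGGCGG, -201 for GGAATG and -98 for CCAAT, counted from the start site. GGGCGG occurred in 35.7% of all promoters, CCAAT in 37.4% and GGAATG in 14.7%. No match was found in this window for CCGGAAG (ETS, in 8.86% of promoters), CAAGTG (NKX2-1, 13.6%), TGTTTAC (FOX, 3.65%), AGATAA (bound by GATA factors, 11.2%) or TGANTCA (AP-1, 7.81%). A match is a run of letters and not a measured binding site.

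The files hold peaks and no reads, so the depth behind each peak is unknown. The strength of a region was therefore its rank score: within each library the strongest peak by -log10 p scored 1, the others evenly less down to nearly 0, and a region without a peak scored 0. Each list was first cut to 72935 peaks, the length of the shortest. Scores were compared by limma, with the Benjamini-Hochberg adjustment over all 83262 regions and a threshold of 0.05, and differences are Prdm3/16KO minus Control on the score scale. A score is relative to the other peaks of its library. In cells measured in bulk, fewer cells with the region open and a smaller opening in each cell cannot be told apart.

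The deposited lists held 72935 to 85704 peaks in Prdm3/16KO and 79525 to 112297 in Control libraries. At the length used, the weakest peak kept had a -log10 p of 2.00 to 14.0 in Prdm3/16KO and 6.59 to 35.6 in Control libraries. Regions at the ends of 10 epithelial marker genes, which include Epcam, Cdh1 and Nkx2-1, were open in all 11 libraries, with a mean score of 0.720 to 0.769 in Prdm3/16KO and 0.736 to 0.791 in Control libraries. Nkx2-1 was the weakest of them, with a mean of 0.289 in Prdm3/16KO and 0.321 in Control libraries. In the lists that follow, a gene without a region counts as 0 in the mean. Of 7 endothelial markers 3 had a region, with a mean over the list of 0.141 to 0.205 in Prdm3/16KO and 0.201 to 0.275 in Control libraries, with Pecam1, Cdh5, Tie1 and Sox17 at 0 throughout. Erg and Kdr were open in all 11 libraries, and Tek in 0 of 5 Prdm3/16KO and 6 of 6 Control libraries. Erg was as strong as the epithelial mean, at 0.760 in Prdm3/16KO and 0.777 in Control libraries, and Kdr had 0.467 and 0.452. Of 7 mesenchymal markers 4 had one, at 0.194 to 0.271 in Prdm3/16KO and 0.212 to 0.282 in Control libraries, with Pdgfra, Tbx4 and Tcf21 at 0 and Col1a1, Col1a2 and Twist1 open in all 11 libraries, and Pdgfrb in 3 of 5 Prdm3/16KO and 6 of 6 Control libraries. Means in Prdm3/16KO and Control libraries were 0.366 and 0.392 for Col1a1, 0.636 and 0.668 for Col1a2, and 0.474 and 0.518 for Twist1. Of 6 leukocyte markers 3 had one, at 0.123 to 0.197 in Prdm3/16KO and 0.174 to 0.237 in Control libraries, with Ptprc, Laptm5 and Csf1r at 0. Spi1 was open in all 11 libraries, with a mean of 0.747 in Prdm3/16KO and 0.691 in Control libraries, Cd68 in 0 of 5 Prdm3/16KO and 5 of 6 Control libraries, and Coro1a in 2 of 5 Prdm3/16KO and 5 of 6 Control libraries. Of 5 erythroid markers 2 had one, at 0.0529 to 0.198 in Prdm3/16KO and 0.0802 to 0.226 in Control libraries, with Gata1, Hbb-bt and Alas2 at 0. Klf1 was open in 5 of 5 Prdm3/16KO and 4 of 6 Control libraries, and Hba-a1 in 5 of 5 Prdm3/16KO and 5 of 6 Control libraries. The part of these differences in the Prdm16 values below was not tested.

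Open regions were found from the start of Prdm16 to +284 kb in both genotypes, with long gaps between some of them. Single regions inside the gene differed in both directions. Of the 20 regions compared, 5 were lower in Prdm3/16KO (at +51, +109, +137, +277 and +278 kb), 4 were higher (at +127, +138, +228 and +284 kb) and 11 were not called. Over all 83262 regions 20.9% were called lower and 17.1% higher, together 38.0%, and 45% of the Prdm16 regions were called in either direction, 9 of 20, which is near the genome-wide share. In the 556 genes with a body of at least 300 kb, 24.2% of 9115 regions were called lower and 23.5% higher, so calls in both directions were also common in other long genes. With the lists at their deposited lengths, 7 Prdm16 regions were lower and 2 higher, against 25.3% lower and 12.5% higher genome-wide. The median difference was 0.01 over the Prdm16 regions and -0.02 over all regions tested, and the median size of a difference regardless of sign was 0.113 over the Prdm16 regions and 0.115 over all.

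**Figure D1:**
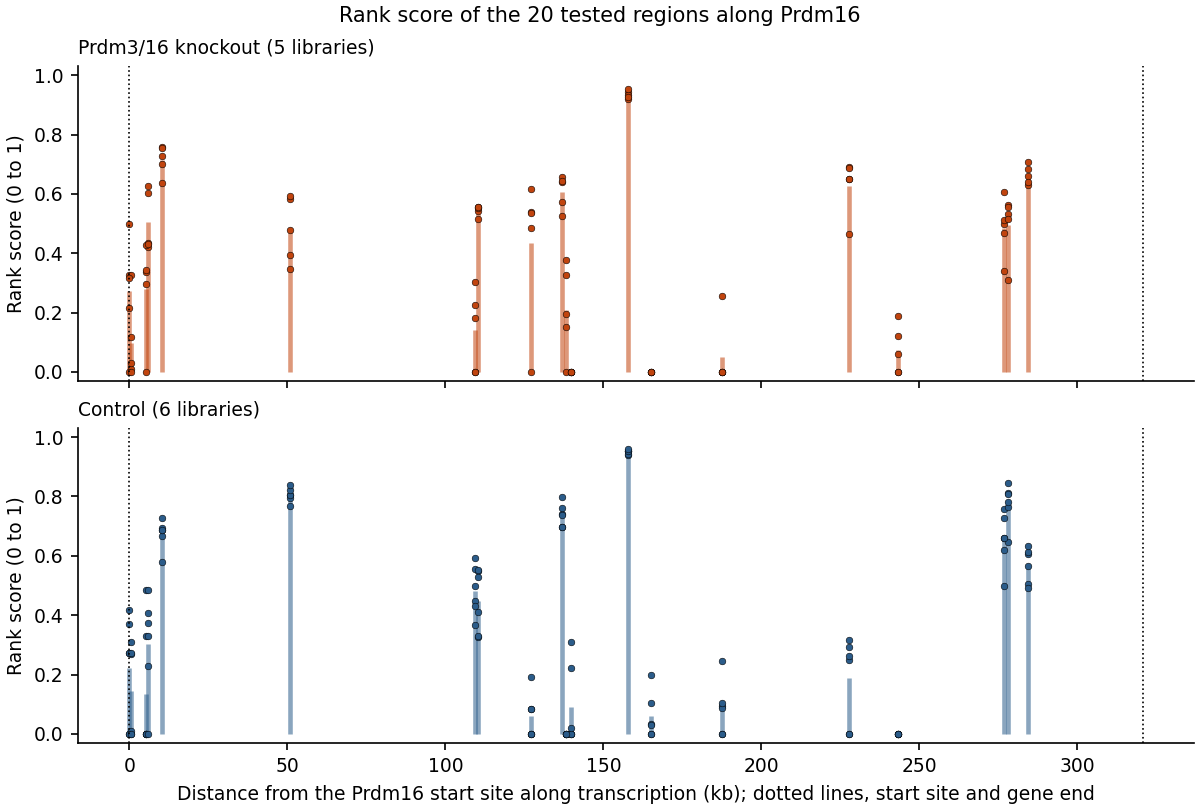
Rank score (0 to 1, vertical axis) of the 20 tested Prdm16 regions by distance from the transcription start (kb, horizontal axis, in the direction of transcription), in the 5 Prdm3/16KO libraries (upper panel) and the 6 Control libraries (lower panel). Points are libraries, vertical bars their means and dotted lines the start site and the far end of the gene; the highest score in both genotypes is at +158 kb.

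Prdm16 carried many open regions for its length. It had 6.23 tested regions per 100 kb of gene body, against a median of 2.27 in the 556 long genes, of which 56 were denser. All 20 tested regions lay inside the gene body, and the nearest call to the start site was at +51 kb. They fell into 5 stretches separated by gaps of at least 25 kb. The first stretch, from the start to +10 kb, held 5 regions and no call. A single region at +51 kb was called lower. The stretch from +109 to +187 kb held 9 regions, with 2 called lower and 2 higher. That from +228 to +243 kb held 2 regions with 1 called higher, and that from +277 to +284 kb held 3 regions, 2 lower and 1 higher. The widest gap without a tested region, 58.3 kb, lay between +51 and +109 kb, and the last 36.3 kb of the gene held none.

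The number of Prdm16 peaks did not separate the genotypes. At the common list length the 5 Prdm3/16KO libraries had 18, 20, 19, 19 and 19 peaks (19 ± 0.707, SD, n = 5), and the 6 Control libraries had 19, 22, 15, 16, 13 and 20 (SD 3.39, n = 6), a difference in means of 1.5. With each peak interval counted once, whatever its number of summits, the counts were 15 ± 2.12 in Prdm3/16KO and 15.3 ± 3.83 in Control libraries (SD, n = 5 and 6). The Control libraries spread on both sides of the Prdm3/16KO libraries. In the deposited lists the counts were 22.4 ± 2.61 in Prdm3/16KO (SD, n = 5) and 25 ± 8.25 in Control libraries (SD, n = 6), and also overlapped. The mean score over the 20 regions was 0.400, 0.376, 0.377, 0.377 and 0.375 in Prdm3/16KO libraries, against 0.336 to 0.415 with a mean of 0.370 ± 0.0275 (SD, n = 6) in Control libraries. Gains and losses at single regions thus left the sum over the gene inside the spread of the Control libraries.

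The promoter region itself was weak and uneven in both genotypes. It lies at chr4:154636916-154637315, just upstream of the start base, shares 208 bp with the printed promoter sequence and covers all 3 motif matches. Its score was 0.326, 0.216, 0.317, 0 and 0.499 in Prdm3/16KO libraries and ranged from 0 over a median of 0.273 to 0.417 in Control libraries. A peak was present in 4 of 5 Prdm3/16KO and 4 of 6 Control libraries, so both genotypes had libraries with none. The mean was 0.272 ± 0.183 in Prdm3/16KO and 0.222 ± 0.181 in Control libraries (SD, n = 5 and 6), a difference of 0.05 with a 95% interval of -0.17 to 0.26 (limma, adjusted p = 0.729). Over 19703 regions within 1 kb of a gene end, the median score was 0.603 in Prdm3/16KO and 0.628 in Control libraries, 73.7% were open in all 11 libraries, and 20.7% scored below the Prdm16 promoter region.

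The other regions near the start were not called either. A region at +1 kb averaged 0.0970 ± 0.136 in Prdm3/16KO and 0.144 ± 0.154 in Control libraries (SD, n = 5 and 6). It and the promoter region were in 1 long peak interval in some libraries, and in 1 Prdm3/16KO and 1 Control library both took their score from the same peak. At +5 kb the averages were 0.281 ± 0.164 in Prdm3/16KO and 0.136 ± 0.216 in Control libraries (SD, n = 5 and 6), and at +10 kb, a strong region open in all 11 libraries, 0.715 ± 0.0505 in Prdm3/16KO and 0.674 ± 0.0496 in Control libraries. Both Control values at +5 kb, in replicates 3 and 6, came from a peak shared with +6 kb whose summit lay 441 and 417 bp from the centre of the +5 kb region. In the cut lists no Control library thus had a summit of its own at +5 kb, while 4 Prdm3/16KO libraries did. The Prdm3/16KO peaks there had a -log10 p of 31.9 to 40.0. The list of Control replicate 6 was cut at 35.6, so a Control summit of like -log10 p may have been cut. The regions at +1, +5 and +6 kb overlap the lncRNA gene 5930403L14Rik, so they cannot be assigned to Prdm16 alone.

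The region at +6 kb, chr4:154630800-154631199, came nearest to a call among these. It scored 0.422, 0.604, 0.627, 0.436 and 0.431 in Prdm3/16KO libraries, and from 0 over a median of 0.351 to 0.486 in Control libraries. The highest Control library reached into the range of the Prdm3/16KO libraries. The difference was 0.20 (SE 0.0826, limma, adjusted p = 0.0708).

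The strongest Prdm16 region lies in the middle of the gene, at +158 kb, chr4:154478914-154479313. Its score was 0.919, 0.944, 0.934, 0.925 and 0.955 in Prdm3/16KO libraries, and 0.940 to 0.959 with a median of 0.952 in Control libraries. It stood above 95.9% of all regions tested in the mean over the libraries. The genotypes overlapped, and the difference of -0.02 (SE 0.00812, 95% interval -0.03 to 0.00) was not called (limma, adjusted p = 0.160).

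Of the 5 regions called lower in Prdm3/16KO, +51 kb had the smallest adjusted p, at chr4:154585753-154586152. Its score was 0.479, 0.394, 0.584, 0.347 and 0.592 in Prdm3/16KO libraries, and 0.768 to 0.837 with a median of 0.805 in Control libraries. Every Prdm3/16KO library lay below every Control library, by a margin wider than the whole range of the Control libraries. The mean was 0.479 ± 0.110 in Prdm3/16KO and 0.805 ± 0.0235 in Control libraries (SD, n = 5 and 6), a difference of -0.33 (SE 0.0434, limma, adjusted p = 3.84e-05). A peak was present in all 11 libraries, and the summits lay within 36 bp of each other, so the site was the same in both genotypes and ranked lower in Prdm3/16KO.

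At +278 kb, chr4:154358757-154359156, the score was 0.561, 0.531, 0.556, 0.516 and 0.309 in Prdm3/16KO libraries, and 0.647 to 0.845 with a median of 0.794 in Control libraries. Again the genotypes did not overlap. The mean was 0.495 ± 0.105 in Prdm3/16KO and 0.777 ± 0.0689 in Control libraries (SD, n = 5 and 6), a difference of -0.28 (SE 0.0486, limma, adjusted p = 0.000375). About 1 kb away at +277 kb, chr4:154359774-154360173, the score was 0.468, 0.339, 0.498, 0.512 and 0.608 in Prdm3/16KO libraries, and 0.498 to 0.759 with a median of 0.660 in Control libraries. Here the lowest Control library lay inside the Prdm3/16KO range. The difference was -0.17 (SE 0.0543, limma, adjusted p = 0.0245), and it was no longer called without Prdm3/16KO replicate 2 (adjusted p = 0.0610), Control replicate 3 (adjusted p = 0.0558) or Control replicate 6 (adjusted p = 0.0528).

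At +137 kb, chr4:154499707-154500106, the score was 0.658, 0.572, 0.642, 0.524 and 0.642 in Prdm3/16KO libraries, and 0.695 to 0.799 with a median of 0.739 in Control libraries. The genotypes did not overlap, though the nearest libraries were close. The difference of -0.13 (SE 0.0317, limma, adjusted p = 0.00485) was the smallest of the lower calls, at a region open in all 11 libraries.

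At +109 kb, chr4:154527440-154527839, the score was 0.183, 0.224, 0.304, 0 and 0 in Prdm3/16KO libraries, and 0.368 to 0.591 with a median of 0.472 in Control libraries. Prdm3/16KO replicate 4 had no peak there in its deposited list either, while all 6 Control libraries had one. The list of Prdm3/16KO replicate 5 was the shortest and was not cut. The mean was 0.142 ± 0.137 in Prdm3/16KO and 0.482 ± 0.0835 in Control libraries (SD, n = 5 and 6), a difference of -0.34 (SE 0.0699, limma, adjusted p = 0.00154). When peaks were ranked by the authors' fold enrichment instead, the difference was -0.10 and not called (adjusted p = 0.218). Its neighbour at +110 kb, open in all 11 libraries, averaged 0.544 ± 0.0172 in Prdm3/16KO and 0.449 ± 0.108 in Control libraries (SD, n = 5 and 6) and was not called (limma, adjusted p = 0.177).

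**Figure D2:**
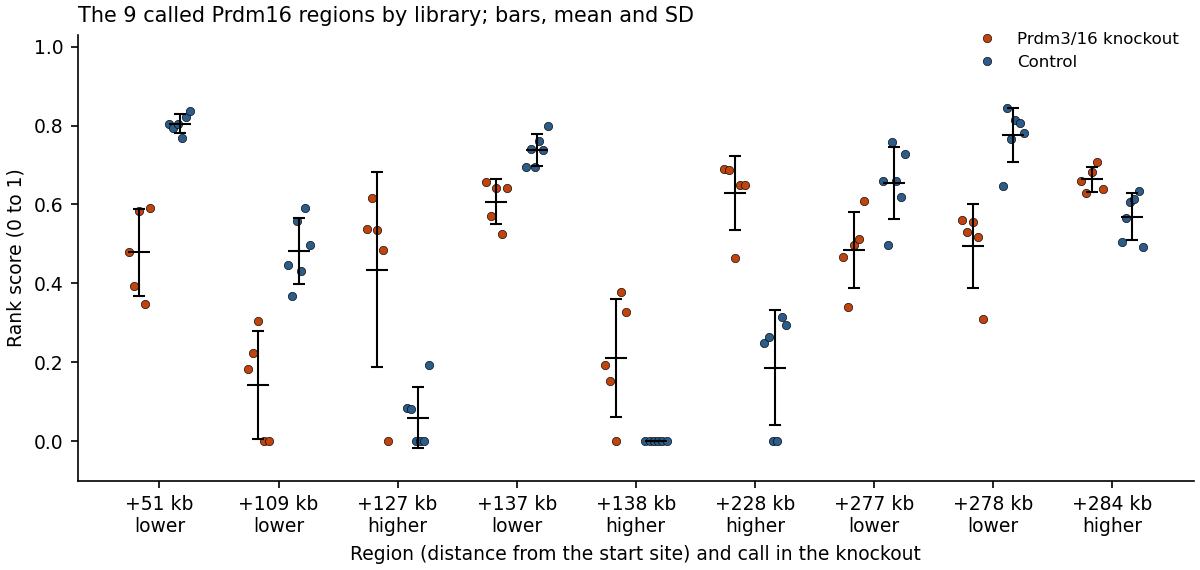
Rank score (0 to 1, vertical axis) in every library of the 9 called Prdm16 regions, named by distance from the transcription start and direction of the call, with Prdm3/16KO to the left of Control at each region. Points are libraries, the short bars the mean and the error bars the SD (n = 5 and 6); the genotypes do not overlap at +51, +109, +137, +228 and +278 kb.

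Among the 4 regions called higher, +228 kb at chr4:154409107-154409506 changed most. Its score was 0.690, 0.687, 0.465, 0.651 and 0.649 in Prdm3/16KO libraries, and ranged from 0 over a median of 0.256 to 0.315 in Control libraries. Control replicates 3 and 4 had no peak in the lists used, and every Prdm3/16KO library was above every Control library in score. In fold enrichment the peak of Prdm3/16KO replicate 3, at 9.59, lay just below the Control peaks, at 9.60 to 10.4. The other Prdm3/16KO peaks lay above them. The mean was 0.628 ± 0.0934 in Prdm3/16KO and 0.187 ± 0.147 in Control libraries (SD, n = 5 and 6), a difference of 0.44 (SE 0.0747, limma, adjusted p = 0.000316). The summits of the 9 peaks lay within 17 bp of each other.

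At +127 kb, chr4:154509551-154509950, the score was 0.538, 0.617, 0.534, 0.485 and 0 in Prdm3/16KO libraries, and ranged from 0 over a median of 0.0414 to 0.193 in Control libraries. The first 4 Prdm3/16KO libraries stood above all Control libraries, and the fifth, whose list was the shortest and was not cut, had no peak. The difference was 0.37 (SE 0.0969, limma, adjusted p = 0.00732), and with the lists at their deposited lengths it was 0.30 and not called (adjusted p = 0.0846).

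At +138 kb, chr4:154498375-154498774, the score was 0.195, 0.152, 0, 0.378 and 0.328 in Prdm3/16KO libraries and 0 in all 6 Control libraries, whose deposited lists also held no peak there. The region was thus listed in 4 of 5 Prdm3/16KO and 0 of 6 Control libraries. The difference was 0.21 (SE 0.0609, limma, adjusted p = 0.0141). The region entered the comparison only through its Prdm3/16KO peaks, and its Control scores of 0 have no spread. It lies about 1 kb from the region at +137 kb, which was lower in Prdm3/16KO, so neighbouring sites differed in opposite directions. At +284 kb, chr4:154352259-154352658, the score was 0.660, 0.630, 0.683, 0.708 and 0.640 in Prdm3/16KO libraries, and 0.493 to 0.634 with a median of 0.586 in Control libraries. The ranges touched. The difference of 0.09 (SE 0.0354, limma, adjusted p = 0.0493) was at the threshold and was lost without any 1 of the 5 Prdm3/16KO libraries or without Control replicate 1, 2 or 6 (adjusted p up to 0.110).

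Presence alone was compared as well. Fisher's exact test could reach the threshold at 5 of the 20 regions and called 1, at +138 kb (exact p = 0.0152, two-sided, adjusted p = 0.0321), against 47.2% of 24732 testable regions genome-wide. The region at +138 kb was kept only through its Prdm3/16KO peaks, so this test and limma drew there on the same pattern of presence. At 5 of the other 8 called regions all 11 libraries had a peak, so those calls were differences in rank alone. Without any 1 library other than Prdm3/16KO replicate 3 this test called 0 Prdm16 regions. That replicate was the Prdm3/16KO library without a peak at +138 kb.

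**Figure D3:**
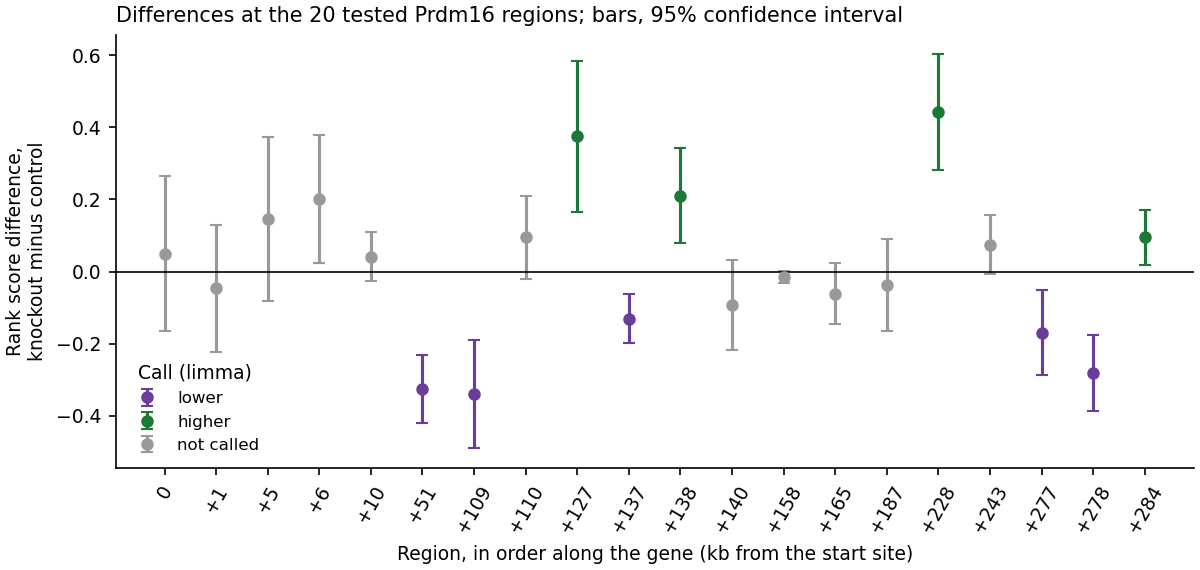
Difference in mean rank score, Prdm3/16KO minus Control (vertical axis, score units), with its 95% confidence interval from limma, for the 20 tested Prdm16 regions in order from the transcription start (horizontal axis, kb). Purple regions were called lower, green ones higher and grey ones not; the largest rise is 0.44 at +228 kb and the largest fall -0.34 at +109 kb.

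In 4 regions every Prdm3/16KO library was below every Control library, and in 1 every Prdm3/16KO library was above, while the groups overlapped in 15. Genome-wide the shares of such regions were 12.0% and 10.9%. The 8 Prdm16 regions open in all 11 libraries held 4 lower calls and 1 higher call, against 18.0% lower and 12.9% higher among 36509 such regions genome-wide. The 12 regions open in fewer libraries held 1 lower call and 3 higher calls, against 23.2% lower and 20.5% higher among 46753 such regions. The 11 regions not called had differences of -0.09 to 0.20 and adjusted p-values of 0.0708 to 0.729, which does not show that they were alike.

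Several weak regions were listed almost only in one genotype without being called. At +140 kb and at +165 kb no Prdm3/16KO library had a peak, and 3 and 4 Control libraries had one, with mean scores of 0.0919 ± 0.137 and 0.0615 ± 0.0779 (SD, n = 6). At +243 kb it was the reverse, with peaks in 3 Prdm3/16KO libraries (0.0743 ± 0.0815, SD, n = 5) and in no Control library. All these counts are of the cut lists. The Prdm3/16KO peaks at +243 kb had a -log10 p of 17.6 to 26.9, and the weakest peak kept in Control libraries one of 6.59 to 35.6. A Control peak of like -log10 p may thus have been cut in some libraries. At +187 kb 1 Prdm3/16KO library and 4 Control libraries had a peak. The 11 regions with a peak in only 1 or 2 libraries, which were not tested, were weak as well, with scores of 0.00584 to 0.336 where a peak was present. In the cut lists they were found in Control libraries alone at 7 regions and in Prdm3/16KO libraries alone at 4, and 3 of those 4 in Prdm3/16KO replicate 4. One of them, about 2 kb upstream of the start and over the antisense lncRNA gene Prdm16os, was the only Prdm16 region outside the gene body, with a peak in 2 Control libraries.

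**Figure D4:**
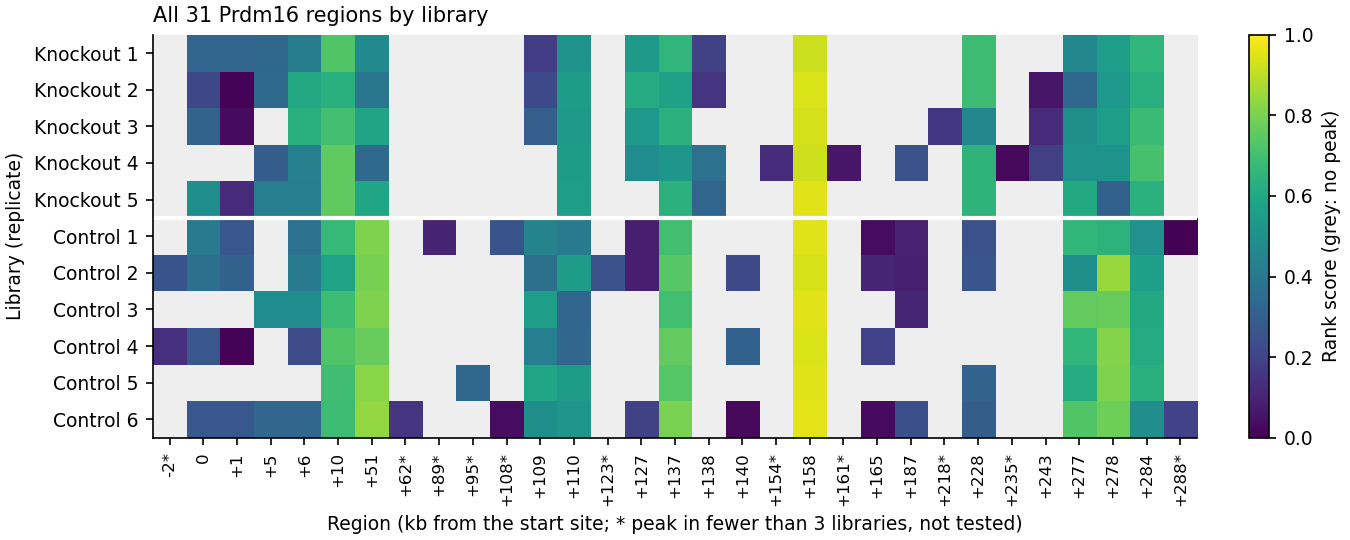
Rank score (colour, 0 to 1, grey where there was no peak) of all 31 Prdm16 regions (columns, kb from the transcription start) in the 5 Prdm3/16KO libraries (upper rows) and the 6 Control libraries (lower rows). A star marks the 11 regions not tested; the column at +158 kb is near 1 in every library, that at +228 kb is stronger in Prdm3/16KO and that at +51 kb is weaker.

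Mecom, the other gene deleted in these mice, also carried calls in both directions. Of its 46 tested regions 6 were lower (13.0%) and 15 higher (32.6%), against 20.9% lower and 17.1% higher genome-wide. Its mean region score was 0.356 ± 0.0231 in Prdm3/16KO and 0.300 ± 0.0268 in Control libraries (SD, n = 5 and 6). The share called, 45.7%, was close to the 45% of Prdm16. Mecom had 7.52 regions per 100 kb, against 6.23 in Prdm16. Whether the 2 genes differ in direction was not tested.

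Around Prdm16, the protein-coding genes within 500 kb of its body carried lower calls about as often as the genome, and higher calls in a smaller share of regions. Of 22 such genes 20 had a tested region, and of their 62 regions 13 were lower (21.0%) and 3 higher (4.84%), against 20.9% and 17.1% genome-wide, with a median difference of -0.04. The difference in share was not tested. Of these genes 7 held only lower calls, 1 only higher calls and 2 both, while 10 held none. A region in Megf6, 138.6 kb beyond the 3′ end of Prdm16, scored 0 in all 5 Prdm3/16KO libraries and 0.260 to 0.485 in the 6 Control libraries (limma, adjusted p = 5.95e-05). On the side of the start, a region 15.6 kb from the gene and nearest to Actrt2 had a peak in 0 of 5 Prdm3/16KO and 5 of 6 Control libraries (limma, adjusted p = 0.0103). A second, 62.1 kb away, averaged 0.400 ± 0.237 in Prdm3/16KO and 0.0186 ± 0.0246 in Control libraries (SD, n = 5 and 6; limma, adjusted p = 0.00415).

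Regions of genes whose proteins work with PRDM16 were counted as a list. The 16 genes, which include Ctbp1, Ctbp2, Ehmt1, Pparg and Ebf2, had 160 tested regions, of which 30 were lower (18.8%) and 19 higher (11.9%), below the genome-wide shares given above. Of these genes 4 held only lower calls, 3 only higher calls, 3 both and 6 none, and the median difference was -0.02. The Ctbp1, Ctbp2 and Ehmt1 regions, 2, 7 and 5 in number, held no call. Ebf2, an early factor of the brown fat lineage, had 8 lower and 1 higher among 20. The 3 regions with the smallest p were all open in Prdm3/16KO libraries alone, although 2 of their 3 genes carried more lower than higher calls. All 3 entered the comparison only through their Prdm3/16KO peaks. Their Control scores of 0 have no spread, so the p-values below add no support beyond presence and absence of a peak. Ppargc1a had 8 lower and 6 higher among 37 regions and Zfp516 6 lower and 5 higher among 33, while Ppargc1b had 0 lower and 4 higher among 11. A region 14.3 kb outside Ppargc1a, which encodes the coactivator PGC-1α, at chr5:51439756-51440155, scored 0.808 to 0.894 in the 5 Prdm3/16KO libraries and 0 in the 6 Control libraries (limma, adjusted p = 1.34e-08). A region in Ppargc1b, which encodes the related PGC-1β, averaged 0.770 ± 0.0275 in Prdm3/16KO (SD, n = 5) and was 0 in Control libraries (limma, adjusted p = 2.27e-08). One in Zfp516, which encodes a zinc finger partner of PRDM16, averaged 0.618 ± 0.0324 (SD, n = 5) and was likewise 0 in Control libraries (limma, adjusted p = 1.75e-07).

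The genes whose mean region score followed that of Prdm16 most closely over the 11 libraries were Epcam, Bend4, Slc22a23, Sh2d4a and Coro2b, among 1904 genes with at least 10 tested regions. Their Pearson correlations were 0.899, 0.835, 0.781, 0.780 and 0.779. For Epcam, whose protein was the one used to capture the cells, it was 0.753 within the Prdm3/16KO libraries and 0.915 within the Control libraries. Bend4 and Slc22a23 followed Prdm16 within the Control libraries (0.881 and 0.866) and hardly within Prdm3/16KO (0.0652 and 0.0886). Sh2d4a and Coro2b followed it at 0.784 and 0.831 within Control and at 0.569 and 0.905 within Prdm3/16KO libraries. Within Prdm3/16KO the Prdm16 mean was 0.400 in replicate 1 and 0.375 to 0.377 in the others, so correlations there rest largely on that library. All these correlations are descriptions over libraries that share a list length and a ranking, and the highest of 1904 values. Mecom ranked 457th, with a correlation of 0.308.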

How the data were processed

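ATAC-seq peak lists of 5 Prdm3/16KO and 6 Control libraries were analysed, 1 list per library, grouped by the labels. Per the submitters' processing notes the build was mm10 and MACS2, DiffBind 3 and deepTools were used; the sources used here name no aligner, peak-calling option or filter. The layout is that of a narrowPeak file. The deposited score, a whole number from 540 to 1000, was not used. The fold enrichment over background, a ratio, was made by the authors within each library and served to rank peaks in one alternative. The deposited -log10 p and -log10 q were likewise made by the authors within each library. They depend on depth, which is unknown, so they were used only as ranks within a list or as a common -log10 q minimum of 5.

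Windows of 400 bp were centred on summits, the best-ranked kept where windows overlapped, and a library had a region if a peak covered at least 100 bp of it. Gene bodies came from the RefSeq table (GRCm38.p6, 21883 protein-coding genes). Scores were compared by limma (version 3.58.1, R 4.3.3, with trend and robust estimation) on genotype alone, and Fisher's exact test compared presence. Tables and figures were made in Python 3.11.15 with pandas 2.3.3, numpy 2.4.6, matplotlib 3.10.9 and scipy 1.17.1. The score comparison was run on data simulated with known shifts. No outcome of that run is reported here, so it is not evidence for any call. This holds above all for regions that lacked a peak in some libraries. The labels give no batch. Alternatives covered list length, ranking, overlap, regions kept, merged peaks, centring, fit options, a replicate block, the gene body alone and leaving out each library. Named were every Prdm16 region, the 5 genes most like it, neighbours within 500 kb, Mecom and the 3 partner regions with the smallest p; among neighbours the Megf6 and Actrt2 regions were chosen after their values were seen. Members and lists were chosen with earlier results of these data known.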

Additional observations from a re-analysis of the deposited data

Results flagged for a closer look

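In 4 of the 26 sets of values looked at, 1 library stood apart from the others of its genotype. About 1 set in 20 would do so by chance if values were independent and normally spread. That share need not hold here, since the scores have a floor at 0 and the sets share the same libraries. At +127 kb, Prdm3/16KO replicate 5 scored 0, while the next library scored 0.485 and the highest 0.617; without it the difference was 0.48 in place of 0.37. At +278 kb the same library scored 0.309, while the next scored 0.516 and the highest 0.561. Prdm3/16KO replicate 5 had the shortest deposited list, of 72935 peaks, and its weakest peak kept had the lowest -log10 p, 2.00. Whether this bears on its scores was not tested. At +228 kb, Prdm3/16KO replicate 3 scored 0.465, while the others lay between 0.649 and 0.690, and it was still above every Control library. In the mean score over the Prdm16 regions, Prdm3/16KO replicate 1 stood at 0.400, while the others lay between 0.375 and 0.377. The calls at +127, +228 and +278 kb held without each of these libraries.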

How the results depend on the processing

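The calls at +51, +137, +228 and +278 kb were made under all 23 alternatives that refit the scores. Of 204 values of the 9 called regions under these alternatives, 183 kept their call, 21 lost it and 0 changed direction. Lists as deposited gave 7 lower and 2 higher regions, lists cut to 36467 peaks 4 and 2, and a -log10 q of at least 5 gave 6 and 2. Presence by Fisher's exact test gave 0 lower and 1 higher, and 0 to 1 called when a library was left out. Leaving out each library in turn gave 4 to 5 lower and 3 to 5 higher, and 7 regions were called every time; list length and windows stayed as with 11 libraries. The call at +109 kb was lost when peaks were ranked by fold enrichment, at +127 kb with lists as deposited, of 36467 peaks or at that -log10 q (adjusted p up to 0.135), at +277 kb when ranked by fold enrichment (adjusted p = 0.513), and at +284 kb under 13 alternatives. In lists of 36467 peaks +109 and +138 kb held no tested region, nor did +138 kb when a peak in 5 libraries was asked for. The cause of these losses was not tested.

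The difference in peak number, Prdm3/16KO minus Control, was 1.5, -2.6 with lists as deposited and -0.333 with each interval counted once (0.6 to 2.4 when a library was left out). That in mean score was 0.0113, and -0.0404 with lists as deposited (0.00458 to 0.0203 when a library was left out). The median over all regions moved to -0.05 with lists as deposited. With the replicate block there were 5 lower and 3 higher regions, +284 kb being lost. The numbers showed no pairing: deviations of same-numbered libraries correlated at -0.0243 to 0.126, and 1 of 5 correlated best with its own number. Depth is unknown, so a region without a peak may be open below detection.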
